A study of Mus musculus with 12 samples.

Results

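The genes described here are 42 members of the machinery that breaks down fatty acids, chosen by symbol from both deposited tables. They comprise 13 peroxisomal enzymes and transporters, 11 peroxins, 16 mitochondrial genes of beta-oxidation and 2 others, the cytosolic acetyl-CoA thioesterase Acot12 and the transcriptional coactivator Ppargc1a. All 42 were found in the kidney table of 15361 genes and in the F4/80+ table of 18145 genes. Polyadenylated RNA was sequenced from mice edited with CRISPR-Cas9 to be homozygous for the arginine (Arg/Arg) or the tryptophan (Trp/Trp) allele of rs3184504, a coding polymorphism of the adaptor gene Sh2b3 (LNK). Every mouse had received angiotensin II for 4 weeks, so no untreated group stands beside these values. There were 3 whole kidneys and 3 F4/80+ preparations of each genotype, 12 libraries in 4 groups. The F4/80+ cells came from separate kidneys, after a Percoll gradient and anti-F4/80 microbeads. The labels used here give no age, sex or background strain.

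Mitochondria and peroxisomes both shorten fatty acids by cycles of oxidation, hydration, a further oxidation and thiolytic cleavage. Mitochondria take long-chain fatty acids up through the carnitine shuttle and pass electrons to the respiratory chain, whereas peroxisomes oxidise very long-chain and branched fatty acids and hand shortened products on. The proximal tubule of the kidney is rich in both organelles and depends on fatty acids for fuel, and the nuclear receptor PPAR-alpha is known to drive many of these genes there.

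Kidney libraries held 19586919 to 54686600 counts, of which 17785672 to 49994052 were in nuclear protein-coding genes. F4/80+ libraries held 35883980 to 51603745 counts, but mitochondrially encoded genes took 70.1 to 83.6% of them (7.9 to 9.4% in kidney), which left 6879337 to 11143970 counts in nuclear protein-coding genes. Levels are therefore given as CPM, with the nuclear protein-coding counts of a library as its total. Trp/Trp kidney replicate 1 stood apart from the other kidneys. Its summed level of 10 lymphocyte markers was 101 CPM against 8.13 to 12.9 CPM in the other kidneys, and that of 10 adipocyte markers was 326 CPM against 111 to 136 CPM. Of the lymphocyte sum, 75.8 CPM was Jchain alone, which was at 1.47 to 3.10 CPM in the other kidneys. By their RNA, the F4/80+ preparations were not richer in macrophage markers than whole kidney. Their 14 detected macrophage markers of 15 summed to 139 to 386 CPM against 362 to 691 CPM in whole kidney, and Adgre1, the gene of F4/80 itself, lay at 1.26 to 16.7 CPM against 4.11 to 8.32 CPM. Their 12 markers of proximal tubule segments S1 and S2 summed to 6766 to 21685 CPM, beside 16126 to 17983 CPM in kidney. In such bulk samples, fewer cells of a type and less RNA per cell cannot be told apart.

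In kidney the 42 genes together took 1.06% ± 0.00551 of the nuclear protein-coding counts of Arg/Arg libraries and 1.002% ± 0.0293 of those of Trp/Trp libraries (SD, n = 3). In the F4/80+ preparations they took 0.801% ± 0.0764 and 0.738% ± 0.0405. Levels of different genes were compared only as CPM per kilobase of exon, with lengths from GENCODE M21. The highest in kidney was Ehhadh, the peroxisomal bifunctional enzyme of the hydration and second oxidation steps, at 306 CPM per kilobase. Etfa, a subunit of the electron transfer flavoprotein, followed at 267, the thiolase and lipid carrier gene Scp2 at 251, and the medium-chain dehydrogenase Acadm at 218. When the length of the principal transcript replaced the union of exons, an alternative chosen after seeing the data, Acadm led at 417, followed by Etfa at 352, Scp2 at 330 and Ehhadh at 306, so the order depends on which transcripts are counted. The lowest was Abcd2, an ABC transporter of very long-chain acyl-CoA, at 0.178 CPM per kilobase. In the F4/80+ preparations the leading members were Etfa at 246 CPM per kilobase, the mitochondrial thiolase Acaa2 at 189 and the long-chain dehydrogenase Acadl at 171. By the principal transcript, Etfa at 325 was followed by Acadm at 227 and Hadh, the short-chain hydroxyacyl-CoA dehydrogenase, at 211, with Acaa2 and Acadl next.

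Reads of some members could have been assigned to other genes. Of the 50-base words in the principal transcript, 67.3% of Etfb, 62.4% of Hadhb, 46.2% of Acaa1b, 41.4% of Scp2, 35.1% of Acaa1a, 25.1% of Pex14, 24.0% of Acadvl, 14.4% of Acot4 and 11.3% of Eci2 also occur in a paralogue, a pseudogene or an overlapping gene. Values of these genes are uncertain to that extent. For Ehhadh, Pex11a and Abcd3 the share was 0%.

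The comparison of Trp/Trp with Arg/Arg kidneys asks whether the allele went with a difference in these genes under angiotensin II. Most members were slightly lower in Trp/Trp kidneys, and the best separated were Ehhadh and Pex11a, a peroxin that acts in peroxisome division. The edgeR quasi-likelihood test called none of the 42 at an adjusted p under 0.05, as it called 0.0% of all 14464 genes tested. DESeq2 called 1 member, Ehhadh, among 15 genes (0.0977%).

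Ehhadh is annotated on chromosome 16, minus strand, from 21761287 to 21787807 (mm10). It was at 965, 1042 and 988 CPM in the 3 Arg/Arg kidneys and at 829, 801 and 848 CPM in the 3 Trp/Trp kidneys. All 3 Trp/Trp values lay below all 3 Arg/Arg values. The means were 998 ± 39.1 and 826 ± 23.8 CPM (SD, n = 3), and the edgeR log2 fold change was -0.29 ± 0.06 (SE), with an unadjusted p of 0.000929 and an adjusted p of 0.843. In DESeq2 its adjusted p was 0.00895, and the adjusted p ranged from 0.456 to 0.999 over the other edgeR settings. In the authors' deposited table the log2 fold change was -0.29 with an adjusted p of 0.00849, which made it the only 1 of 41 members with an adjusted p there to pass, beside 0.103% of all genes with one.

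Pex11a is annotated on chromosome 7, minus strand, from 79735957 to 79743131. Its kidney levels were 87.4, 89.1 and 88.0 CPM in Arg/Arg and 65.6, 70.4 and 78.3 CPM in Trp/Trp. The Arg/Arg kidneys lay within 2 CPM of each other and above every Trp/Trp kidney. Its log2 fold change was -0.32 ± 0.08 (edgeR, adjusted p = 0.843), and DESeq2 gave an adjusted p of 0.140.

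The promoters of these genes, from 250 bases before the RefSeq start to 50 bases after it, are shown because they were the best separated members in kidney and reads of both are free of shared sequence. Capitals mark AGGTCA (a core site of nuclear receptors), CCAAT and GGGCGG (a GC box) on either strand, and positions count from 1 at the 5′ end.
Ehhadh, chr16:21787785-21788084, minus strand (GRCm38.p6): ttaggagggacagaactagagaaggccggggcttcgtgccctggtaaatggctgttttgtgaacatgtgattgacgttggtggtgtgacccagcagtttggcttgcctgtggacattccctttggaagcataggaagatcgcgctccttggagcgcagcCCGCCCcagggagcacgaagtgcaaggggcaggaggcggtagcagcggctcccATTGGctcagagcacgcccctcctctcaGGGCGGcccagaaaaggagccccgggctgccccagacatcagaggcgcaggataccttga
Pex11a, chr7:79743082-79743381, minus strand (GRCm38.p6): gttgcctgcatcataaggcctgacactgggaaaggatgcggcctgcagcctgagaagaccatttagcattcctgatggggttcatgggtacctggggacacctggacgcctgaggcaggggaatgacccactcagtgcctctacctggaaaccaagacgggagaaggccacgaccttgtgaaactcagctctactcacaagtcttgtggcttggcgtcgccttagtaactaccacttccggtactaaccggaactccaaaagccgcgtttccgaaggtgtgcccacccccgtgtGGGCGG
The Ehhadh window held GGGCGG at positions 160 and 241 and CCAAT at position 213, and the Pex11a window held GGGCGG at position 295, past the start. Neither held AGGTCA. Among the 41 RefSeq promoters found for 36 of the 42 members, 68.3% held GGGCGG, 39% CCAAT and 14.6% AGGTCA, beside 57.9%, 37.2% and 13.2% of the promoters of the other genes in the kidney table.

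Among the other peroxisomal enzymes and transporters, Crot and Abcd3 had the next smallest p. Crot, which moves medium-chain acyl groups onto carnitine for export, was at 518, 509 and 476 CPM in Arg/Arg and at 408, 472 and 442 CPM in Trp/Trp kidneys (log2 fold change -0.20 ± 0.08, edgeR adjusted p = 0.843). Abcd3, the abundant membrane transporter PMP70, was at 505, 531 and 495 CPM against 454, 458 and 482 CPM (-0.15 ± 0.06, edgeR adjusted p = 0.843). In both genes the groups did not overlap, by a narrow margin. Hsd17b4, the other bifunctional enzyme, and Scp2 were also lower in every Trp/Trp kidney, at 316 to 321 CPM against 328 to 336 and at 842 to 870 CPM against 883 to 901. Acaa1a, a peroxisomal thiolase, went the other way and was higher in every Trp/Trp kidney, at 159 to 165 CPM against 151 to 154.

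Abcd2 was the only member with a log2 fold change above 0.1 in kidney (1.14 ± 0.51, edgeR adjusted p = 0.843), at 0.829, 0.660 and 0.468 CPM in Arg/Arg and 2.75, 0.684 and 0.956 CPM in Trp/Trp. The high value was that of Trp/Trp replicate 1, and without that library the log2 fold change was 0.26.

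**Figure D1:**
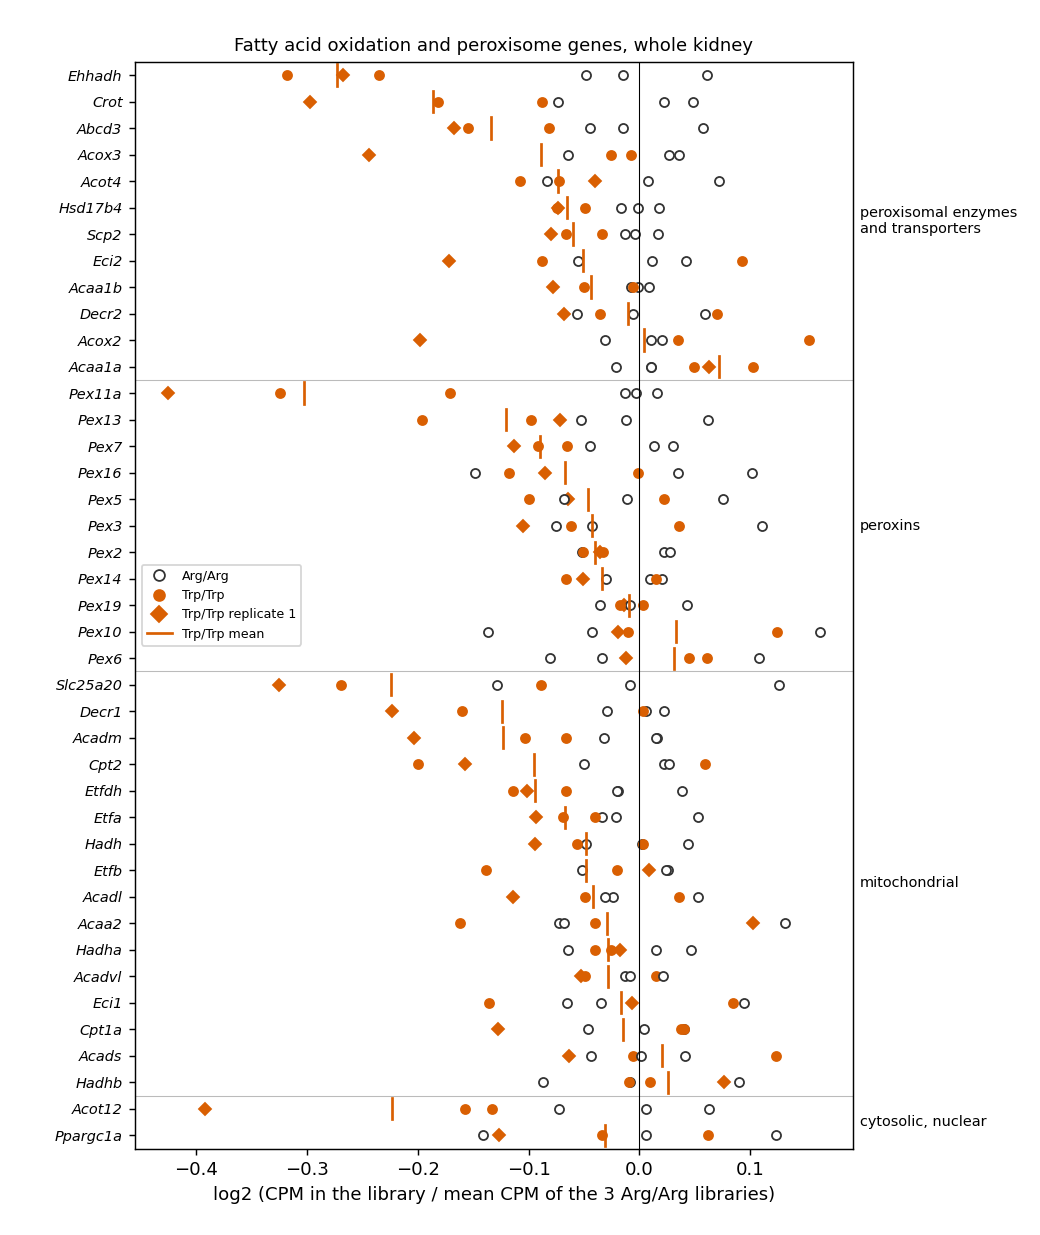
Each point is a kidney library, placed by the log2 ratio of its CPM to the mean CPM of the 3 Arg/Arg kidneys, for 41 members by class (Abcd2, under 3 CPM, is left out). Open circles are Arg/Arg, filled symbols Trp/Trp with replicate 1 as a diamond, and short lines Trp/Trp means. Ehhadh and Pex11a show the clearest gap between genotypes, and most Trp/Trp means lie left of 0.

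Of the peroxins, Pex11a and Pex13 were lower at an unadjusted p under 0.05. Pex13, a docking protein of the import pore, was at 47.3, 48.6 and 51.2 CPM against 46.7, 42.8 and 45.8 CPM (-0.14 ± 0.06, edgeR adjusted p = 0.843). Pex7, the receptor for a second type of import signal, was also lower in every Trp/Trp kidney, at 69.2 to 71.5 CPM against 72.5 to 76.4. The other peroxins overlapped, for instance Pex19, the chaperone for peroxisomal membrane proteins, at 114 to 120 CPM in Arg/Arg and 115 to 117 CPM in Trp/Trp.

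Of the mitochondrial members, Slc25a20, the carnitine-acylcarnitine carrier of the inner membrane, had the smallest p. It was at 75.2, 81.8 and 89.7 CPM in Arg/Arg and at 65.6, 68.2 and 77.3 CPM in Trp/Trp kidneys, and the groups overlapped (-0.24 ± 0.09, edgeR adjusted p = 0.843). Acadm, Etfa and Etfdh were lower in every Trp/Trp kidney, Acadm at 773 to 849 CPM against 870 to 899. The entry enzyme Cpt1a was at 614, 651 and 635 CPM against 580, 650 and 651 CPM. Acot12 was at 209, 217 and 198 CPM against 159, 187 and 190 CPM without overlap (-0.24 ± 0.09, edgeR adjusted p = 0.843), and Ppargc1a overlapped at 127 to 153 and 128 to 146 CPM.

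Counted over all members, 36 of 42 kidney log2 fold changes were negative (35 by mean CPM), beside 49.4% of all genes tested. At an unadjusted p under 0.05, 7 members were lower (2.03% of all genes) and 0 were higher (3.68%). The genotypes did not overlap in 12 members that were lower in Trp/Trp (3.67% of all genes) and in 1 that was higher (6.59%). The median log2 fold change was -0.08 for the peroxisomal enzymes and transporters, -0.06 for the peroxins and -0.06 for the mitochondrial members, against 0.00 for all genes. These shifts are small and uneven over the libraries. Without Trp/Trp replicate 1 the median of all members was -0.03 with 3 members lower at an unadjusted p under 0.05, without Trp/Trp replicate 2 there were 4, without Trp/Trp replicate 3 the median was -0.10 with 12, and without Arg/Arg replicate 2 there were 2. The share of all genes in these fits is not given here, so the counts cannot be told apart from a shift over all genes.

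Summed over the class, the 13 peroxisomal enzymes and transporters were at 4429, 4507 and 4393 CPM in Arg/Arg and at 3972, 4113 and 4172 CPM in Trp/Trp kidneys. The lowest Arg/Arg kidney lay above the highest Trp/Trp kidney. The means differed by -357 CPM, and Ehhadh made up 48.2% of that difference, Crot 17.0%, Abcd3 12.7% and Scp2 10.1%. With Ehhadh left out the sum was 3445 ± 34.4 CPM in Arg/Arg and 3260 ± 102 CPM in Trp/Trp, still without overlap. The peroxins summed to 692 to 719 CPM against 661 to 689 CPM, also without overlap, and the mitochondrial members to 5091 to 5251 CPM against 4803 to 5120 CPM, with overlap. The members were chosen with results in view, so these sums carry no test.

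The 12 proximal tubule S1 and S2 markers summed to 16126 to 17983 CPM in Arg/Arg and 16296 to 17624 CPM in Trp/Trp kidneys, with a median log2 fold change of 0.00. The 12 distal nephron markers had a median of -0.04, with 9 negative, and summed to 7753 to 8180 CPM and 7516 to 8056 CPM. The 8 markers of segment S3 had a median of -0.17, with 6 negative. Their sum was 7472 CPM in Trp/Trp replicate 1 against 8741 to 9490 CPM in the other kidneys. Of that sum, 4194 CPM in Trp/Trp replicate 1 and 4578 to 5156 CPM in the other kidneys was Slc27a2. That gene is also in the list of other peroxisomal genes described below. The 15 macrophage markers summed to 362 to 419 CPM in Arg/Arg and 454 to 691 CPM in Trp/Trp kidneys. What part of the members' values goes with these markers was not tested.

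Other genes of the same pathways had similar small values in kidney. Of 39 other peroxisomal genes, 38 were tested, 31 had a negative log2 fold change and 6 were lower at an unadjusted p under 0.05, with a median of -0.07. The smallest p belonged to the coenzyme A hydrolase Nudt19 (-0.45 ± 0.13), the membrane protein Pxmp4 (-0.20 ± 0.07) and the thioesterase Acot3 (-0.29 ± 0.10), each at an edgeR adjusted p of 0.843. A further list held 26 other genes of mitochondrial and related fatty acid metabolism, not all of them of mitochondrial proteins. Of these, 22 were negative and 3 were lower at an unadjusted p under 0.05, with a median of -0.07. These were the acyl-CoA synthetases Acsl3 (-0.29 ± 0.07) and Acsl1 (-0.16 ± 0.05) and the thioesterase Acot2 (-0.16 ± 0.07), none called.

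Among 17 regulators, the bile acid receptor Nr1h4 (FXR) had the smallest p (-0.45 ± 0.10, edgeR adjusted p = 0.843), with 180 ± 13.4 CPM in Arg/Arg and 133 ± 15.5 CPM in Trp/Trp kidneys (SD, n = 3), without overlap. Pparg (0.82 ± 0.45) and Ppard (-0.16 ± 0.09) overlapped, and the log2 fold change of Pparg went down to 0.01 when a library was left out. Of 15 PPAR-alpha targets, 14 were tested, 10 were negative, none was lower and 1, Cidec, was higher at an unadjusted p under 0.05. Their smallest p belonged to the lipid droplet genes Cidec (1.80 ± 0.67, and down to 0.34 when a library was left out) and Plin5 (-0.46 ± 0.22) and the pantetheinase Vnn1 (-0.16 ± 0.08). The groups overlapped in all 3. Cidec also stands in the adipocyte marker list. It was at 17.8 CPM in Trp/Trp replicate 1 and at 1.51 to 3.04 CPM in the other kidneys.

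In the F4/80+ preparations the same contrast gave lower values in Trp/Trp for most members, but libraries of a genotype differed widely from each other. The biological coefficient of variation was 0.28, beside 0.101 in kidney. edgeR called none of the 41 members tested, as it called 0.0% of all 15225 genes, and DESeq2 called 4 genes (0.0234%), none of them a member. In the authors' deposited table, none of the 36 members with an adjusted p passed, and the smallest was 0.207, beside 0.368% of genes with one that passed. Abcd2, with 0 counts in 2 of the Arg/Arg libraries, was too low to be tested.

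The best separated member was Acot4, a peroxisomal thioesterase that releases succinate from its CoA ester. It was at 73.1, 71.8 and 109 CPM in Arg/Arg and at 58.9, 53.9 and 54.9 CPM in Trp/Trp preparations. The Trp/Trp values lay close together and below all Arg/Arg values. Its log2 fold change was -0.74 ± 0.25, with an unadjusted p of 0.0132 and an edgeR adjusted p of 0.605. Acot12 was at 139, 213 and 301 CPM against 154, 95.6 and 151 CPM, with overlap (-0.86 ± 0.35, unadjusted p = 0.0332, edgeR adjusted p = 0.606). The 3 Arg/Arg values spread over a wider range than the difference between the means.

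The promoters of both thioesterase genes, with capitals as above, are shown because these were the 2 members of smallest p in the F4/80+ preparations and both windows hold AGGTCA, which 6 of the 41 member promoters hold.
Acot4, chr12:84038129-84038428, plus strand (GRCm38.p6): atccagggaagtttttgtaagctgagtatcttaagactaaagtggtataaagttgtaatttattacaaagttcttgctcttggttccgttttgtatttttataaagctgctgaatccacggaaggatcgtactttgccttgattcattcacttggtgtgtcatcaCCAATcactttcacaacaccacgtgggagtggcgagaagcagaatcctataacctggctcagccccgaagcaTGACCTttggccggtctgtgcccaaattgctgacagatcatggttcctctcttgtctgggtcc
Acot12, chr13:91741271-91741570, plus strand (GRCm38.p6): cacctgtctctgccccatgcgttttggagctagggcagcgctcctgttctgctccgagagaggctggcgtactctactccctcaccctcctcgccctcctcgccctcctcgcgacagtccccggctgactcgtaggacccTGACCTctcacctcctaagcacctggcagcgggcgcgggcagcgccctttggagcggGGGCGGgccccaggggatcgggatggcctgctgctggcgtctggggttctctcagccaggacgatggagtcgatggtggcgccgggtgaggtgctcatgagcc
AGGTCA, read on the minus strand, began at position 238 in Acot4 and at position 141 in Acot12. The other member promoters that held it were those of Acadm, Acadvl, Cpt1a and Scp2. A match of letters is a description of the window and says nothing of binding.

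The next members by p were Pex11a (-0.56 ± 0.29), Decr2, an auxiliary reductase for unsaturated fatty acids (-0.47 ± 0.24), Scp2 (-0.55 ± 0.30), the branched-chain oxidase Acox3 (-0.58 ± 0.34), Ehhadh (-0.52 ± 0.31) and Crot (-0.42 ± 0.26), with edgeR adjusted p from 0.642 to 0.707. Ehhadh was at 342, 499 and 643 CPM in Arg/Arg and at 449, 365 and 338 CPM in Trp/Trp. Pex11a was at 62.5, 89.0 and 82.3 CPM against 74.8, 45.2 and 54.7 CPM. In both, Arg/Arg replicate 1 lay among the Trp/Trp values and Trp/Trp replicate 1 reached into the Arg/Arg range.

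**Figure D2:**
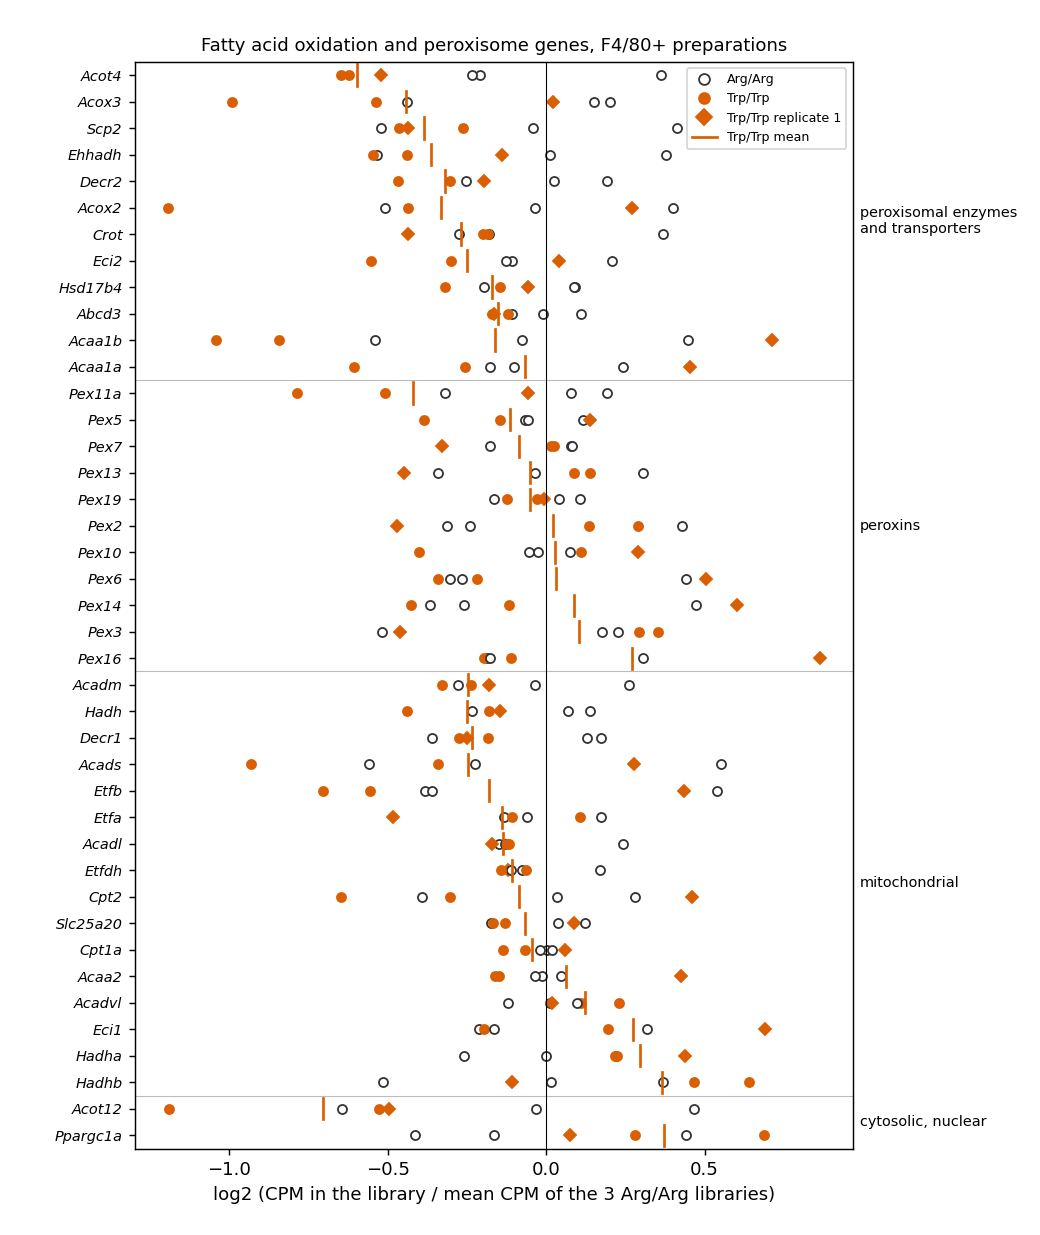
Each point is an F4/80+ library, placed by the log2 ratio of its CPM to the mean CPM of the 3 Arg/Arg preparations, for 41 members by class (Abcd2 is left out). Symbols are as for kidney, and the horizontal scale is wider. Libraries of both genotypes spread over each other for nearly every member, and Acot4 shows all 3 Trp/Trp values left of the Arg/Arg values.

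Over all members, 36 of 41 log2 fold changes were negative, beside 48.9% of all genes tested. Only 21 of 41 were negative when libraries were scaled by their size alone, mitochondrially encoded counts included. That scaling moved the median of all genes to 0.23, and the share of all genes that were negative under it is not given here. By mean CPM, 29 of the 41 were lower, and Acaa2, Acadvl, Pex2, Pex3, Pex6, Pex10 and Pex14 were higher in Trp/Trp with a negative fitted log2 fold change. For Ehhadh the log2 ratio of mean CPM was -0.36, beside the fitted -0.52. At an unadjusted p under 0.05, 2 members were lower (3.61% of all genes) and 0 higher (4.43%). The groups did not overlap in 2 members that were lower, Acot4 and Abcd3 (3.33% of all genes), and in no tested member that was higher (7.19%). Abcd3 was at 525, 563 and 611 CPM against 505, 503 and 521 CPM. The median log2 fold change was -0.44 for the peroxisomal enzymes and transporters, and with size-only scaling it was -0.19. It was -0.14 for the peroxins and -0.23 for the mitochondrial members. With size-only scaling these were 0.05 and 0.03, which still lay below the 0.23 of all genes.

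Tubule markers moved with these values. The summed peroxisomal enzymes and transporters were at 2301, 2959 and 3352 CPM in Arg/Arg and at 2724, 2115 and 2289 CPM in Trp/Trp preparations, and the genotypes overlapped. In the same libraries the S1 and S2 markers summed to 10808, 21685 and 20528 CPM and to 14860, 6766 and 9899 CPM. The 6 libraries stood in the same order by both sums apart from Arg/Arg replicates 2 and 3, which changed places. All 12 S1 and S2 markers had a negative log2 fold change, 8 of them at an unadjusted p under 0.05, with a median of -1.03, and the S3 markers had a median of -0.66. The 12 distal nephron markers had a median of 0.63, all positive, and summed to 5719 to 14521 CPM in Arg/Arg and 11945 to 21041 CPM in Trp/Trp, and the 13 macrophage markers tested had a median of 1.10. The part of these markers in the members' values was not tested.

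**Figure D3:**
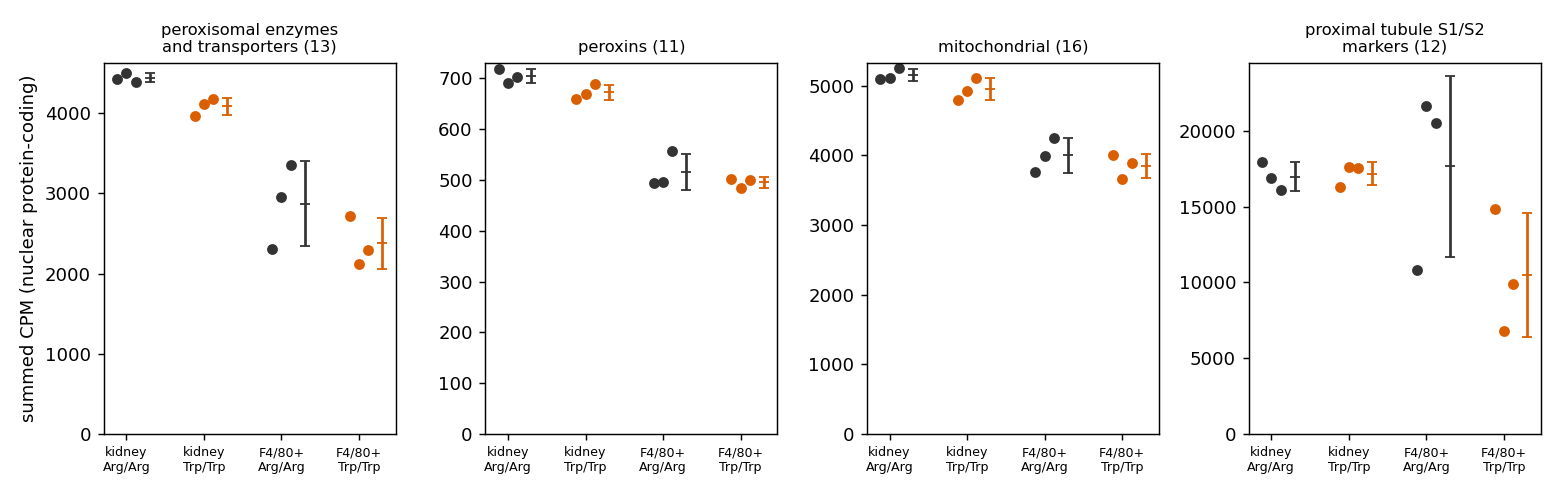
Summed CPM of the 13 peroxisomal enzymes and transporters, the 11 peroxins, the 16 mitochondrial members and the 12 proximal tubule S1 and S2 markers, with a point per library in replicate order and the mean and SD of 3 libraries beside them, on axes that start at 0. Kidney libraries lie close together, with the enzyme sums of Arg/Arg (4393 to 4507) above those of Trp/Trp (3972 to 4172), and F4/80+ libraries spread widely in the enzyme and tubule marker sums.

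How many members had an unadjusted p under 0.05 depended on the libraries. Without Arg/Arg replicate 1, 11 members were lower at an unadjusted p under 0.05 with a median of -0.44. Without Trp/Trp replicate 1, 10 were lower with a median of -0.44. Without Arg/Arg replicate 3 the count was 0, and without Trp/Trp replicate 2 it was 1. The share of all genes in each of these fits is not given here. These counts therefore cannot be told apart from a shift over all genes.

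In the other lists, 34 of 38 other peroxisomal genes tested were negative in the F4/80+ preparations (median -0.36), and the smallest p belonged to the hydroxyacid oxidase Hao2 (-1.0 ± 0.40), the pipecolic acid oxidase Pipox (-0.82 ± 0.33) and the acyl-CoA synthetase Slc27a2 (-0.92 ± 0.37). Slc27a2 also stands in the S3 marker list. Of 24 genes tested in the list of mitochondrial and related fatty acid metabolism, 17 were negative (median -0.20). Slc22a5, the carnitine importer of the cell membrane, was at -0.69 ± 0.26 and the acyl-CoA synthetases Acsm1 and Acsm3 at -0.91 ± 0.36 and -0.96 ± 0.38. Nr1h4 was again the regulator of smallest p (-1.19 ± 0.35), with 274 ± 91.8 CPM in Arg/Arg and 134 ± 36.5 CPM in Trp/Trp and no overlap, followed by Hnf4a (-0.81 ± 0.36) and Ppara (-0.93 ± 0.44). Of the PPAR-alpha targets, 5 of 10 tested were negative, with Vnn1 at -0.77 ± 0.34 and Cyp4a14 and Fabp3 positive at 1.28 ± 0.61 and 0.47 ± 0.26. No gene of these lists was called by edgeR.

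In the contrast of F4/80+ preparations with whole kidney, averaged over genotypes, 23 of the 42 members passed the test. Sample type, isolation and table cannot be told apart in it. edgeR called 16 members lower and 7 higher in the F4/80+ preparations, where it called 64.3% of the 13578 genes tested, 32.0% lower and 32.3% higher. DESeq2 called 18 members lower and 8 higher (66.8% of genes called). The sample types did not overlap in 16 members that were lower (27.0% of all genes) and 1 that was higher (15.2%), and 29 of 42 log2 fold changes were negative (50.3%). Of the peroxisomal enzymes and transporters 8 fell and 2 rose, of the peroxins 3 fell and 2 rose, and of the mitochondrial members 5 fell and 2 rose. Fold changes in this contrast went down with the share of G and C bases (GC) in the principal transcript. Spearman's rho was -0.42 over 13551 genes and -0.26 over the members. Median GC was 44.5% for members called higher, 49.9% for members called lower and 51.3% for those not called. The part of GC in these values was not tested.

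The largest rise was that of Ppargc1a, the coactivator that drives mitochondrial biogenesis. It was at 127 to 153 CPM in the 6 kidneys and at 544, 358, 301, 422, 645 and 486 CPM in the 6 F4/80+ preparations, every one above every kidney. Its log2 fold change was 1.83 ± 0.13 (edgeR adjusted p = 8.37e-08). In every other member called higher the sample types overlapped.

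The largest falls that did not rest on low counts were in 2 dehydrogenases and 2 peroxins. Acads, the short-chain acyl-CoA dehydrogenase, was at 233 to 266 CPM in kidney and 33.2 to 92.9 CPM in the F4/80+ preparations (-1.93 ± 0.23, edgeR adjusted p = 7.59e-06). Acadvl, the very long-chain dehydrogenase, was at 188 to 198 CPM against 50.5 to 64.5 CPM (-1.63 ± 0.09, edgeR adjusted p = 8.57e-09). The medium-chain Acadm fell too, to 402 to 605 CPM from 773 to 899 CPM, whereas Acadl, at 319 to 425 CPM against 409 to 459 CPM, was not called.

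Pex6, an ATPase that recycles the import receptor, was at 83.9 to 95.6 CPM in kidney and 17.9 to 32.0 CPM in the F4/80+ preparations (-1.83 ± 0.18, edgeR adjusted p = 1.33e-06). Pex5, the import receptor itself, was at 108 to 122 CPM against 31.1 to 44.7 CPM (-1.42 ± 0.10, edgeR adjusted p = 9.54e-08). Pex3, which anchors Pex19 at the membrane, rose instead, with 29.7 to 54.3 CPM in the F4/80+ preparations and 29.5 to 34.3 CPM in kidney (0.61 ± 0.14, edgeR adjusted p = 0.00216). Pex2 and Pex10, ubiquitin ligases of the same import cycle, were at 43.8 to 81.8 and 10.6 to 17.1 CPM in the F4/80+ preparations against 62.8 to 66.3 and 14.9 to 18.4 CPM in kidney, and were not called. Abcd2, at 0.468 to 2.75 CPM in kidney and 0 to 1.06 CPM in the F4/80+ preparations, had a log2 fold change of -1.95 ± 0.64 (edgeR adjusted p = 0.0157), which depends on libraries at 0 counts and is not a bound.

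The other named rises were those of Etfb (0.73 ± 0.22, edgeR adjusted p = 0.00962), Hadhb (0.61 ± 0.13, edgeR adjusted p = 0.00136) and Eci2 (0.42 ± 0.13, edgeR adjusted p = 0.0113). All 3 share sequence with other genes, as given above. Hadha, which encodes the partner subunit of Hadhb in the trifunctional protein, was at 179 to 290 CPM against 288 to 311 CPM and was not called. Etfa, the partner of Etfb, differed by 0.01 ± 0.12.

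**Figure D4:**
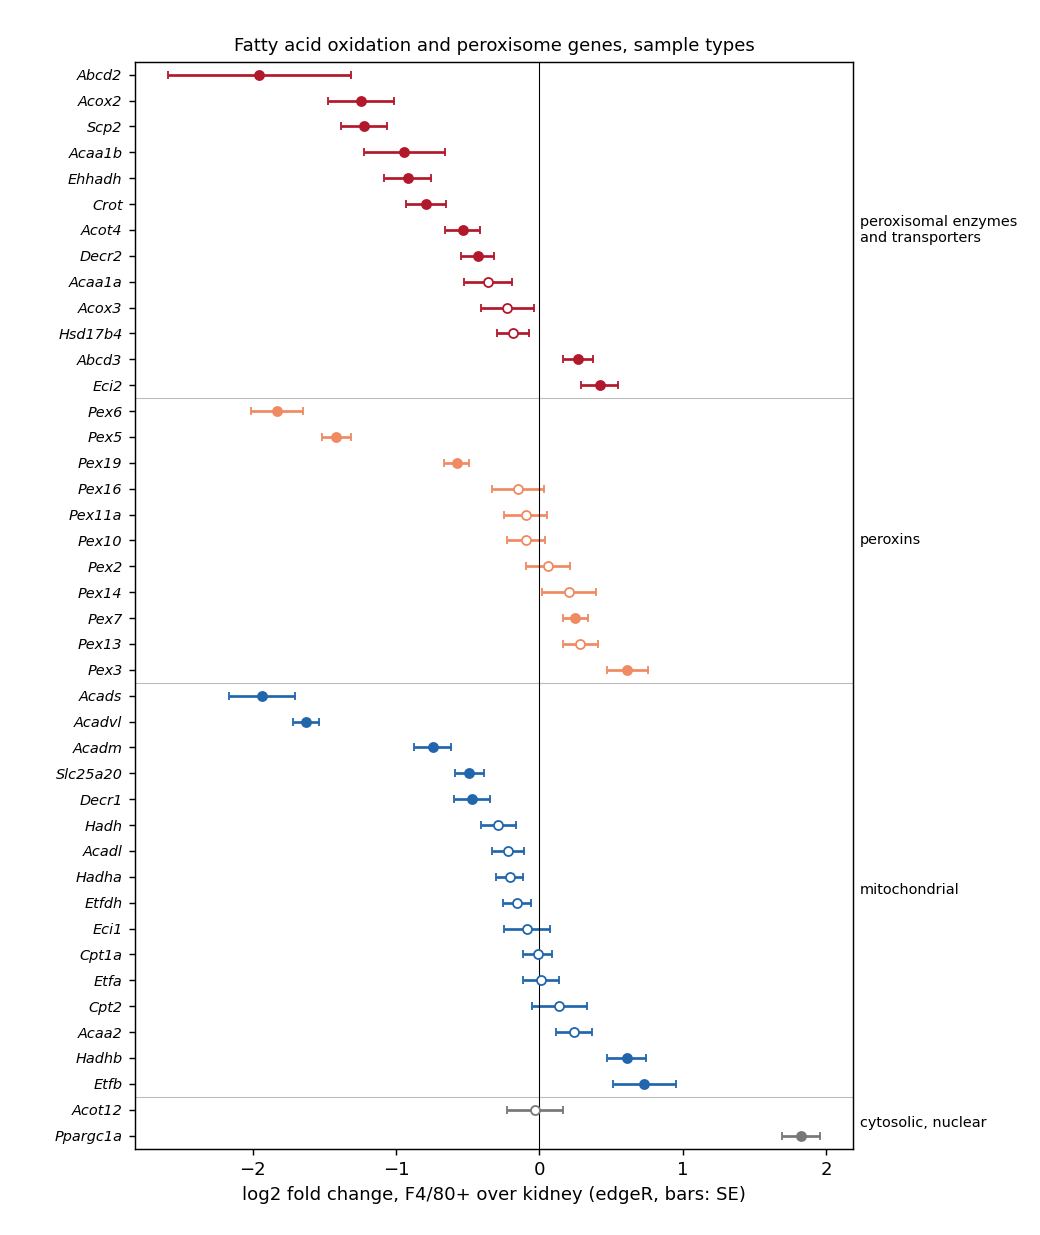
Log2 fold change of F4/80+ preparations over whole kidney for the 42 members by class, from edgeR over 12 libraries, with bars for the SE. Filled points passed an adjusted p under 0.05 and open points did not. Acads, Acadvl, Pex6 and Pex5 lie far to the left of others in their class, and Ppargc1a lies alone at 1.83.

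The median log2 fold change of F4/80+ over kidney was -0.54 for the peroxisomal enzymes and transporters, -0.09 for the peroxins and -0.18 for the mitochondrial members, against -0.01 for all genes. With size-only scaling, which moved the median of all genes to -0.13, the members' counts were 22 lower and 5 higher. The share of all genes called under that scaling is not given here.

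Peroxisomal and mitochondrial members were set against each other within each library, as the mean log2(CPM + 0.5) of the 24 peroxisomal members minus that of the 16 mitochondrial members. Scaling between libraries nearly cancels in this difference. It was -1.28 ± 0.06 for the Arg/Arg kidneys and -1.26 ± 0.02 for the Trp/Trp kidneys (SD, n = 3). The kidney genotypes overlapped, with Arg/Arg at -1.22, -1.28 and -1.33 and Trp/Trp at -1.24, -1.26 and -1.28. In the F4/80+ preparations it was -1.40, -1.38 and -1.28 in Arg/Arg and -1.41, -1.42 and -1.50 in Trp/Trp. The Trp/Trp values lay below the Arg/Arg values, the nearest by 0.01, which held with a pseudocount of 2 CPM. With 0.1 CPM, which gives more weight to Abcd2 with its libraries at 0, the values were -1.45, -1.48 and -1.38 against -1.44, -1.44 and -1.54, and the genotypes overlapped. The genotype difference was 0.02 in kidney and -0.09 in the F4/80+ preparations, and the latter was -0.04 with a pseudocount of 0.1 CPM and -0.11 with 2 CPM. With the peroxins left out it was -0.17, with overlap of Arg/Arg at -0.79, -0.66 and -0.54 and Trp/Trp at -0.73, -0.87 and -0.90, and the difference between sample types went from -0.13 to -0.26.

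The difference of the genotype effects between the sample types was tested as an interaction over all 12 libraries. edgeR called 0.0% of 13578 genes and no member, and DESeq2 called 7 genes (0.051%). At an unadjusted p under 0.05, 1 member was lower, Acot4 (-0.67 ± 0.24, edgeR adjusted p = 0.684), beside 3.56% of all genes lower and 3.22% higher. In kidney Acot4 was at 106, 113 and 118 CPM in Arg/Arg and 109, 107 and 104 CPM in Trp/Trp, with overlap. Without Arg/Arg F4/80+ replicate 1 edgeR called 580 genes (4.23%), Acot4 among them at an adjusted p of 0.0468, with 10 members lower at an unadjusted p under 0.05. The share of all genes at that unadjusted p in the same fit is not given here. The edgeR adjusted p of Acot4 was 0.273 to 0.999 without each of the other libraries. The interaction was negative for 33 of 42 members (49.1% of all genes). Its median over the members was -0.18, against 0.01 for all genes, and that of the S1 and S2 markers was -1.07.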

How the data were processed

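RNA from 12 mouse libraries, 3 per genotype and sample type, had been poly(A)-selected, per the labels. The submitters' processing notes name STAR, DRAGEN, DESeq2 and mm10, without versions. The authors deposited a table per sample type with raw counts per gene and library. Each deposited table also gave a log2 fold change, turned here to Trp/Trp over Arg/Arg, the ratio (fold) it implies, p-values and adjusted p-values, score columns (SE and Wald statistic) and a mean signal of normalised counts. Values taken from them are named as the authors'.

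The 42 members and all gene lists were chosen with earlier results of these data known. Levels were CPM over nuclear protein-coding counts, whereas fold changes come from whole tables with TMM scaling. The scales differ, little in kidney but enough in the F4/80+ libraries to turn the sign of 7 members. TMM on nuclear protein-coding genes alone also gave F4/80+ factors that differed, 1.02, 0.850 and 0.864 in Arg/Arg and 0.985, 1.05 and 0.994 in Trp/Trp. Which step turned the signs was not tested. Each table was fitted with edgeR 4.0.16 (R 4.3.3): filterByExpr (minimum count 10 in 3 libraries, total 15), TMM, the quasi-likelihood test and Benjamini-Hochberg adjustment over all genes tested, with a threshold of 0.05. Sample types and the interaction were fitted over all 12 libraries on the 13578 nuclear protein-coding genes that both tables hold and that passed the filter. The SE is the absolute log2 fold change divided by the square root of F. DESeq2 1.42.0, other scaling, no filter, a replicate block and leaving out each library were alternatives. Fits were also run on simulated counts with known fold changes, and the share recovered is not given here. Named members were the 8 of smallest p per genotype contrast and, between sample types, the 5 largest called changes in each direction. The 3 genes of smallest p were named from each pathway list. Nothing in the labels says that replicates came from different litters or days, and p-values measure only the spread between these libraries. Gene positions matched GENCODE M21 for all members, and promoters are RefSeq's (GRCm38.p6). No protein sequence was used.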

Additional observations from a re-analysis of the deposited data

How the results depend on the processing

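Counts of members past an unadjusted p under 0.05 rest on single libraries. In this section they stand without the share of all genes in the same fit, so a shift over all genes cannot be told apart. Leaving out each library in turn, the members lower in kidney numbered 2 to 12, with medians of -0.102 to -0.0344 for all members, -0.104 to -0.0258 for the peroxisomal enzymes and transporters, -0.0889 to -0.0332 for the peroxins and -0.103 to -0.042 for the mitochondrial members. In the F4/80+ preparations they numbered 0 to 11, with medians of -0.44 to -0.14, -0.65 to -0.25, -0.33 to -0.0837 and -0.41 to -0.0916 in the same order. Neither genotype comparison called a gene without any of the libraries. For the interaction, 0 to 580 genes and 0 to 1 members were called, 1 to 10 members were lower at an unadjusted p under 0.05, and the median was -0.34 to -0.0781. Between sample types, 5 to 8 members were called higher and 16 to 21 lower, and the peroxin median was -0.19 to -0.0027. The summed peroxisomal enzymes and transporters differed between genotypes by -401 to -300 CPM in kidney and by -780 to -254 CPM in the F4/80+ preparations. The peroxisomal minus mitochondrial difference between genotypes was -0.01 to 0.05 in kidney and -0.11 to -0.05 in the F4/80+ preparations, and between sample types it was -0.15 to -0.11. DESeq2 called 15 genes and 1 member in kidney, 4 genes in the F4/80+ preparations and 7 for the interaction. With library size alone as scaling, 0 members were lower in the F4/80+ preparations at an unadjusted p under 0.05, with medians of -0.0281 (all), -0.19 (enzymes and transporters), 0.0503 (peroxins) and 0.0314 (mitochondrial). Each of these lay below the median of all genes under that scaling, given above. Between sample types that scaling gave medians of -0.33 (all), -0.23 (peroxins) and -0.31 (mitochondrial), and for the interaction -0.0541. With peroxins left out, the peroxisomal minus mitochondrial difference was -0.17 between genotypes in the F4/80+ preparations and -0.26 between sample types. Without Ehhadh, chosen after seeing the data, the kidney enzyme sum differed by -185 CPM. The cause of these moves was not tested. Deviations of same-numbered libraries from their group means had r of -0.077 to -0.011 in kidney and -0.486 to 0.18 in F4/80+. With 3 libraries per group, this cannot tell whether the numbers pair the libraries. With the replicate block, the members lower at an unadjusted p under 0.05 numbered 5 in kidney and 1 in the F4/80+ preparations, and no gene was called. Depth limits Abcd2, which had 0 counts in 2 of the F4/80+ libraries.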
